A study of Homo sapiens with 2 samples.

Results

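The annexins are calcium-dependent proteins that bind phospholipid membranes, and 10 annexin genes (ANXA1, ANXA2, ANXA3, ANXA4, ANXA5, ANXA6, ANXA7, ANXA9, ANXA11 and ANXA13) were followed here in HEK-293 cells given miR-204. The genes were taken by name from the annotation of the arrays, which held 15 probes for them, each spotted once. The family was picked because measured ratios of these same arrays set ANXA6 apart from the other annexins, so the difference between ANXA6 and the others is given as a description, with no test. Of the 15 probes, 12 probes for 9 genes were counted, which means that at least 1 of the RNAs gave a signal well above background on both arrays. Over the whole series, 25270 of 40872 probes and 18585 of 30413 gene names were counted by the same rule. All 4 channels were well above background for 11 of the 12 annexin probes, which is called detected in all channels.

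An annexin consists of a conserved core that docks onto negatively charged phospholipids when calcium rises, and of a variable N-terminal tail that binds other proteins, S100 proteins among them. Annexins are known for roles at the inner face of the plasma membrane and on endosomes, in vesicle traffic, membrane repair and the anchoring of actin. ANXA6 differs from the other human annexins in that its core is duplicated within 1 polypeptide chain. MicroRNAs pair through the seed near their 5′ end with target messages and lower their levels or their translation.

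The mature miR-204 sequences are shown because the treatment was a mimic of this microRNA, and miR-211-5p because it carries the same seed as miR-204-5p. Sequences are those of RefSeq on GRCh38.p14, 5′ to 3′, with the seed (bases 2 to 8) in capitals. The labels do not say which arm the mimic carried. MiR-204-5p and miR-204-3p lie on the minus strand at chr9:70810031-70810052 and chr9:70809993-70810013, and miR-211-5p lies on the minus strand at chr15:31065095-31065116.
hsa-miR-204-5p: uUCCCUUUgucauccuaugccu
hsa-miR-204-3p: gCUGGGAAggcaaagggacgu
hsa-miR-211-5p: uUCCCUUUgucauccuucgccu
The seed of the 5p arm of miR-204 and of miR-211 is UCCCUUU, while that of the 3p arm of miR-204 is CUGGGAA. Matches of these seeds in annexin messages were not analysed here.

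HEK-293 is a line of human embryonic kidney cells, here grown in medium with serum. The cells received 75 nM of either miR-204 mimic or scrambled oligonucleotide, and total RNA was taken after 48 h. Both RNAs were hybridized together on a 2-colour Agilent whole genome array, which reads each spot in Cy3 and in Cy5. The control was in Cy3 and miR-204 in Cy5 on the first array, and the colours were exchanged on the other (the dye swap), called the swapped array. No source names another pair of transfections. The arrays were therefore taken as 1 replicate of 1 comparison, and the SD given here is over these 2 arrays and covers technical error only.

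On the first array 27424 spots in control RNA and 28236 in miR-204 RNA were well above background, against 29024 and 25284 on the swapped array. All 4 channels were well above background for 23159 probes, over which the ratios of the arrays had a Pearson r of -0.08 and an SD of 0.43 on the first and 0.28 on the swapped array, so that the ratios of the arrays did not go together across probes. Of 8 genes on the array from a list of 10 markers of this line or of cells in general, 7 were counted, among them VIM, KRT8, KRT18, NEFL and NEFM. The kidney factor PAX2 had no channel well above background. A ratio was called higher or lower where both arrays had 1 sign and their mean reached 2-fold, without a test.

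ANXA6 was the single annexin called higher, 1 of 12 counted probes, and no annexin was called lower. Over all 25270 counted probes, 30 probes (0.119%) were called higher and 131 (0.518%) lower. ANXA6 had 2.83-fold more signal in miR-204 RNA than in control RNA. The other 8 counted annexin genes lay between a log2 ratio of -0.64 and 0.32. Since ANXA6 was chosen on this contrast, nothing is read from its share against the background.

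ANXA6 encodes a protein of endosomes and the plasma membrane that binds the Ras regulator p120 RasGAP and protein kinase C alpha. Its single probe, A_23_P357104, lies at chr5:150463327-150463386 on the minus strand (hg18, the build of the files) and lists 2 RefSeq transcripts of the gene. On the first array its normalized log2 signal was 8.87 in control RNA and 10.28 in miR-204 RNA, and on the swapped array it was 9.38 and 10.97. Both signals in miR-204 RNA were above both signals in control RNA. The log2 ratio was 1.41 on the first and 1.59 on the swapped array, with a mean of 1.5 ± 0.12 (SD over the arrays), or 2.66-fold and 3.0-fold on the arrays.

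**Figure D1:**
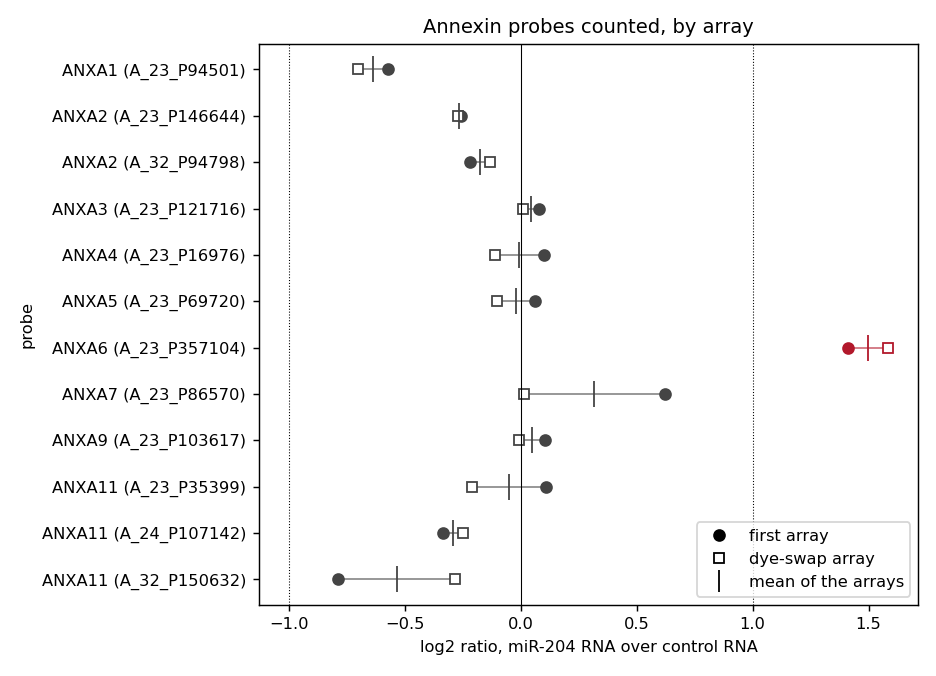
Log2 ratio of miR-204 RNA over control RNA (x axis) for each of the 12 counted annexin probes (y axis), with filled circles for the first array, open squares for the swapped array and a vertical tick for their mean; dotted lines mark 2-fold. ANXA6 lies at 1.41 and 1.59, while the other 11 probes have means between -0.64 and 0.32.

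Among the 23159 probes detected in all channels, ANXA6 had the 2nd highest mean, with 0.0086% of the probes at or above it, and 4 of these probes reached 2-fold higher on each array. By rank ANXA6 was 14th on the first array and 2nd on the swapped array. The lowest probe called higher was that of KIAA1683 with a log2 mean of 1.01, and the highest not called was BX110856, just under the threshold. ANXA6 was thus well inside the threshold on both arrays. It was chosen on these same ratios, so its ranks are a description only.

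**Figure D2:**
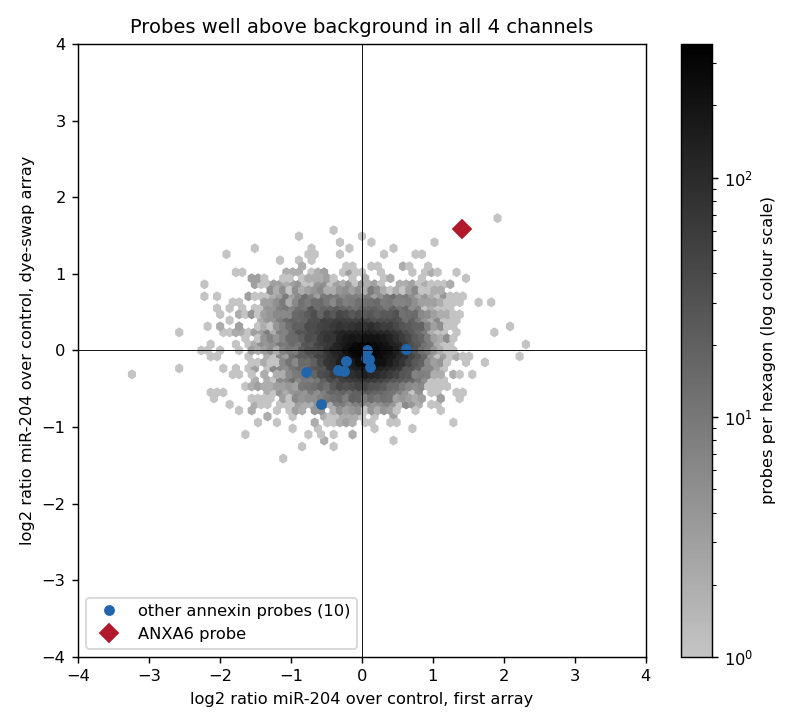
Log2 ratio on the first array (x axis) against that on the swapped array (y axis) for the 23159 probes detected in all 4 channels, with grey hexagons shaded by the number of probes on a log scale, blue circles for 10 other annexin probes and a red diamond for ANXA6. The other annexin probes lie within the mass of probes and ANXA6 lies outside it, at 1.41 and 1.59.

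The scanned ANXA6 signals differed between the arrays before the dyes were corrected. On the first array the mean signal of the spot was 444 in control RNA over a local background of 57.5, and 1247 in miR-204 RNA over 71.5, a net ratio of 3.04. On the swapped array it was 956 in control RNA over 61 and 1179 in miR-204 RNA over 60, a net ratio of 1.25. All 4 signals stood clear of their local background, and miR-204 RNA had the higher signal in either colour. The typical spot also moved with the colours, since the median net log2 ratio was 0.31 over 27050 spots of the first array and -1.32 over 25280 spots of the swapped array. Set against these medians, ANXA6 was higher by 1.30 and by 1.65 on the log2 scale. On this scale 0.61% and 0.0277% of the spots were at or above ANXA6, again a description only.

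The ANXA6 spot did not share its ratio with the spots around it that were well above background in both channels. These ratios are on the scale of processed signals without further normalization. The 26 such spots within 3 rows and columns on the first array had a median log2 ratio of -0.28 (range -2.17 to 0.60), against 1.42 for ANXA6. The 25 such spots around ANXA6 on the swapped array had a median of 0.02 (range -0.74 to 0.62), against 1.59. None of these spots in either window reached the ratio of ANXA6. Since ANXA6 was chosen on its high ratio, nothing is read from this. Dimmer spots in the windows were left out.

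ANXA6 signals of the same RNA were also higher on the swapped array than on the first, by 0.52 in control RNA and 0.69 in miR-204 RNA on the normalized log2 scale. This shift, 0.60 on average, was seen in both RNAs. A shift at least this large in size was found for 2.31% of the 23159 probes, and the next largest among the annexins was 0.38.

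ANXA1, which binds formyl peptide receptors and is known for limiting inflammation, had the lowest ratio of the family. Its probe at chr9:74974822-74974881 read 9.96 in control RNA and 9.38 in miR-204 RNA on the first array, and 9.91 and 9.20 on the swapped array. Both signals in miR-204 RNA were below both in control RNA. The log2 ratios were -0.57 and -0.70 (mean -0.64 ± 0.09, SD over the arrays), 1.56-fold lower, and 1.30% of the 23159 probes were at or below this value. ANXA1 was the only annexin probe past 1.5-fold lower, a size that 2.60% of all counted probes reached (656 of 25270).

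ANXA2, which pairs with S100A10 in a tetramer at the plasma membrane, had ratios slightly below 0 on both arrays. The probe A_23_P146644 covers more genome than its own length and so crosses a junction (chr15:58427172-58428616) and read 12.96 and 12.70 on the first array and 12.98 and 12.71 on the swapped array, in control and miR-204 RNA. The probe A_32_P94798 (chr15:58427038-58427097) read 14.33 and 14.11, then 14.21 and 14.07. Their log2 ratios were -0.26 and -0.27 for the first named and -0.22 and -0.13 for the other, which gave the gene a mean of -0.22 ± 0.03. The annotation of A_23_P146644 also lists a transcript of the pseudogene ANXA2P1, so signal from that copy cannot be told apart from ANXA2. The remaining ANXA2 probe, annotated to the pseudogene ANXA2P3 as well, had no channel well above background.

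ANXA11, a widely expressed annexin with a long N-terminal tail that binds S100A6, had 3 counted probes on chr10 that did not give 1 value. A_23_P35399 (chr10:81905609-81907396) read 12.78 in control and 12.89 in miR-204 RNA on the first array, and 12.78 and 12.57 on the swapped array. A_24_P107142 (chr10:81904886-81904945) read 9.39 and 9.05, then 9.36 and 9.11. The probe A_32_P150632 (chr10:81901176-81901235), which lists no RefSeq transcript, read 6.18 and 5.39, then 6.31 and 6.03. The ratios of A_23_P35399 had opposite signs (0.11 and -0.21), those of A_24_P107142 were -0.34 and -0.25, and those of A_32_P150632 were -0.79 and -0.28. The mean over probes was -0.29 ± 0.06, and the probe means ran from -0.54 to -0.05.

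**Figure D3:**
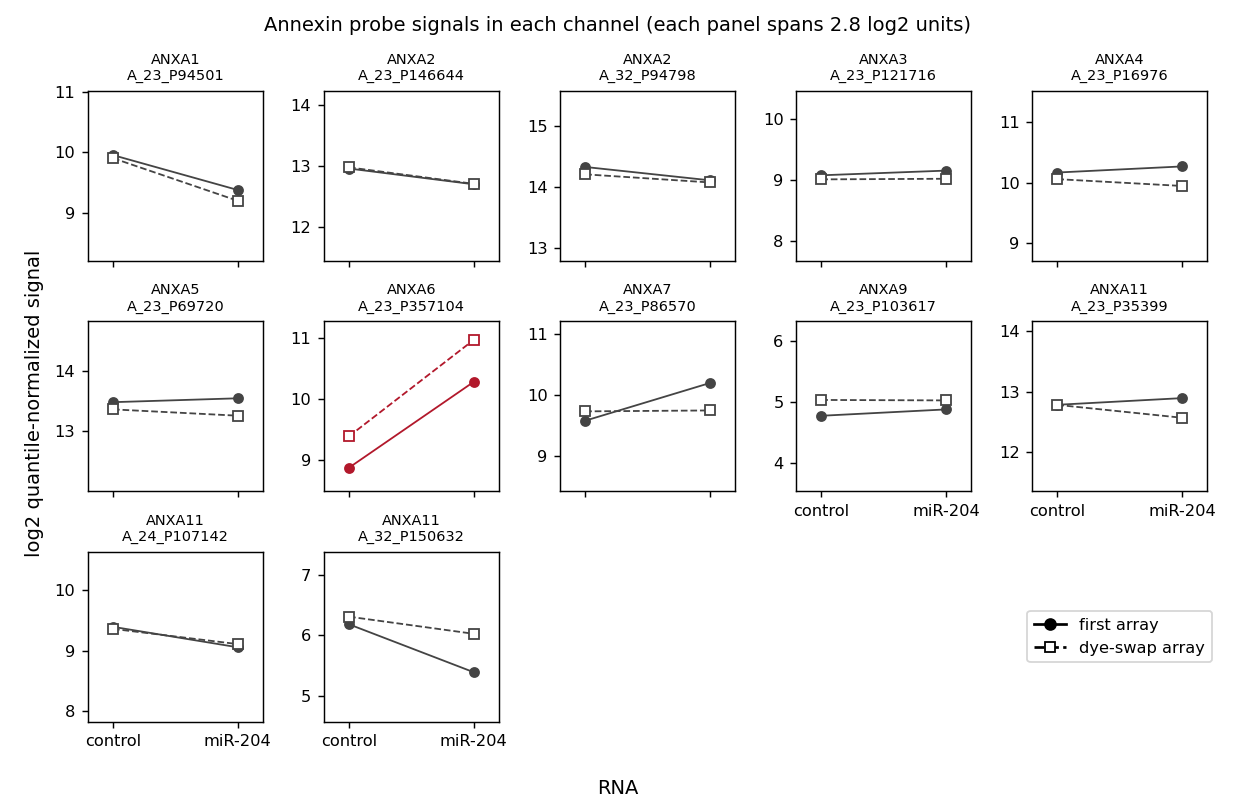
Normalized log2 signal (y axis) of each of the 12 counted annexin probes in control RNA and miR-204 RNA (x axis), joined by a solid line with filled circles for the first array and a broken line with open squares for the swapped array; each panel spans 2.8 log2 units and levels are not to be compared between panels. The ANXA6 lines climb steeply on both arrays, from 8.87 to 10.28 and from 9.38 to 10.97, and those of ANXA1 descend on both.

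ANXA7, known for promoting the fusion of secretory granules, was the highest of the other annexins on both arrays, with a ratio near 0 on the swapped array. Its probe (chr10:74805318-74805377) read 9.58 in control RNA and 10.20 in miR-204 RNA on the first array, and 9.74 and 9.75 on the swapped array. The log2 ratios were 0.62 and 0.02 (mean 0.32 ± 0.43), so that the difference between the arrays was larger than the mean.

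ANXA3, ANXA4, ANXA5 and ANXA9 had mean log2 ratios between -0.02 and 0.05. ANXA3 (chr4:79744519-79750234, across introns) read 9.08 and 9.15, then 9.01 and 9.02, with log2 ratios of 0.08 and 0.01. ANXA4 (chr2:69906253-69906312) read 10.17 and 10.27, then 10.06 and 9.95, with ratios of 0.10 and -0.11. ANXA5, whose binding to exposed phosphatidylserine is used to label dying cells, read 13.48 and 13.55, then 13.36 and 13.26 (chr4:122808929-122808988), with ratios of 0.06 and -0.10. These 3 genes thus differed between the RNAs by 0.11 or less on either array, with signs that were opposite for ANXA4 and ANXA5. ANXA9, an atypical annexin whose core lacks the usual calcium sites, read 4.78 and 4.88, then 5.04 and 5.03 (chr1:149234007-149234066). Its ratios were 0.10 and -0.007, and in miR-204 RNA on the swapped array it was not well above background. ANXA13, an annexin of intestinal and kidney epithelium, had 2 probes, neither well above background in any channel, and no ratio is given.

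Apart from ANXA6, 5 of the other 11 counted probes were lower on both arrays, 2 were higher on both and 4 had opposite signs. The median of their means was -0.05. Over all counted probes, 23.3% were lower on both arrays, 24.2% were higher on both and 47.5% had 1 sign. By gene, 3 of the other 8 annexins were lower on both arrays (ANXA1, ANXA2 and ANXA11), 2 were higher on both (ANXA3 and ANXA7) and 3 had opposite signs. The median over these 8 genes was -0.01 with an SD of 0.29 between genes, beside 0.000529 over all 18585 counted gene names. ANXA6 was 1.51 above the median of the other annexins and 1.18 above ANXA7 on the log2 scale.

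The ratios of the arrays were positively correlated over the annexins, though 4 of the 11 probes without ANXA6 had opposite signs on the arrays. Over the 12 counted annexin probes the ratios of the arrays had a Pearson r of 0.88, and of 0.73 over the 11 probes without ANXA6. Over genes it was 0.93 for 9 genes and 0.83 for the 8 without ANXA6. These points share their arrays and RNAs, and probes of ANXA2 and of ANXA11 share a gene, so that these coefficients are a description. ANXA6 was chosen on these same ratios, so nothing is read from the coefficients that include it. The value for all 23159 probes was -0.08, as above.

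**Figure D4:**
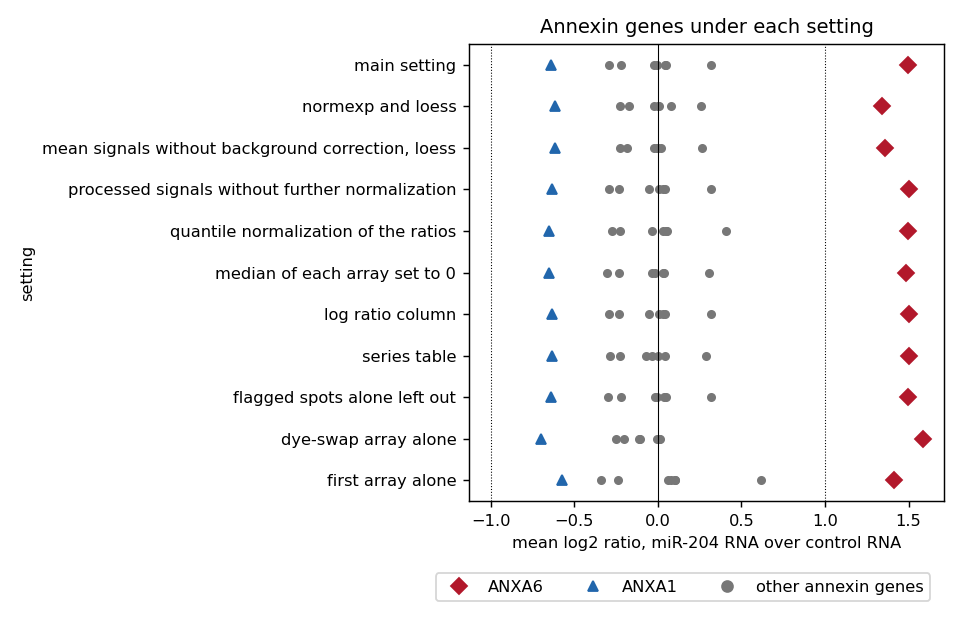
Mean log2 ratio of miR-204 RNA over control RNA (x axis) of each counted annexin gene under the main setting, 8 other settings and each array alone (y axis), with red diamonds for ANXA6, blue triangles for ANXA1 and grey circles for the others; dotted lines mark 2-fold. ANXA6 lies between 1.34 and 1.59 and past 2-fold in every row, and ANXA1 lies below the other annexins in each.

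Gene lists of proteins that work with annexins or bind membranes through calcium were described by counts and medians, without a test. By gene name, 0.145% of all counted names were called higher and 0.447% lower, so that nothing is read from the calls in these lists. Of all 18585 counted names, 4542 were higher on both arrays and 4254 lower on both. The S100 proteins are small calcium-binding partners of the annexins, and all 18 listed were on the array. Of the 9 counted, 0 were called, 3 were higher on both arrays and 3 lower on both, and their median log2 ratio was -0.002. The lowest was S100A4 at -0.12 ± 0.004 and the highest was S100P at 0.27 ± 0.13 (0.36 and 0.18).

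Of 23 listed annexin partners, 15 were counted with a median of 0.01, 3 being higher on both arrays and 4 lower on both. None was called as a gene. The highest was GCA, a calcium-binding protein of granulocytes, at 0.25 (0.46 and 0.03). The lowest was AHNAK, a giant scaffold protein that binds ANXA2 with S100A10, at -0.80 ± 0.30. Of its 4 counted probes, 3 were detected in all channels, with log2 ratios of -1.12 and -0.50, -0.91 and -0.67, and -0.46 and -0.55. The AHNAK probe A_23_P426636 was called lower and was not well above background in miR-204 RNA on either array. Against a floor that was its own dim signal, it was 1.22-fold lower in miR-204 RNA. All 4 counted AHNAK probes were thus lower on both arrays.

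Of 27 listed membrane repair genes, 21 were counted and 0 were called, with a median of 0.01, 5 higher on both arrays and 4 lower on both. AHNAK belongs to this list too and was its lowest member. The highest was FER1L3, the older name of myoferlin, a membrane protein of plasma membrane repair, at 0.45 ± 0.14 (0.35 and 0.56). Of 38 other calcium-dependent membrane binders (copines, synaptotagmins, protein kinases C and others), 24 were counted with a median of -0.06, 5 higher on both arrays and 7 lower on both. The single gene called in these lists was SYT13, a synaptotagmin, at -1.04 ± 1.06, with -0.29 on the first array and -1.79 on the swapped array, where it was not well above background in miR-204 RNA. CPNE7, a copine, was the highest at 0.51 (0.23 and 0.78).

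No other counted probe within 500 kb of the ANXA6 probe reached the ratio of ANXA6 on either array. Since ANXA6 was chosen on its high ratio, this is a description only. Within 500 kb of the ANXA6 probe on hg18, 17 other probes for 10 gene names were counted, and 0 were called, beside 0.119% called higher and 0.518% called lower over all counted probes, so that nothing is read from this count. The median over the 10 names was -0.008, with 2 higher on both arrays and 3 lower on both. The nearest on one side were TNIP1, an inhibitor of NF-kappaB signalling, with 2 probes at 67.4 and 73.4 kb (ratios of -0.46 and 0.47, and of 0.05 and 0.06), and GPX3, an extracellular glutathione peroxidase, at 75.3 kb (-0.28 and -0.03). The nearest on the other side was CCDC69, with a probe at 78.3 kb (-1.12 and -0.60, mean -0.86) and one at 79.3 kb that differed from it (-0.12 and 0.61). The other names, GM2A, ZNF300, MST150, DCTN4, RBM22, AK056449 and SYNPO, lay between 163 and 454 kb away. SYNPO, which encodes an actin-binding protein, had the lowest mean by name (-0.50) and ZNF300, a zinc finger gene, the highest (0.27).

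**Figure D5:**
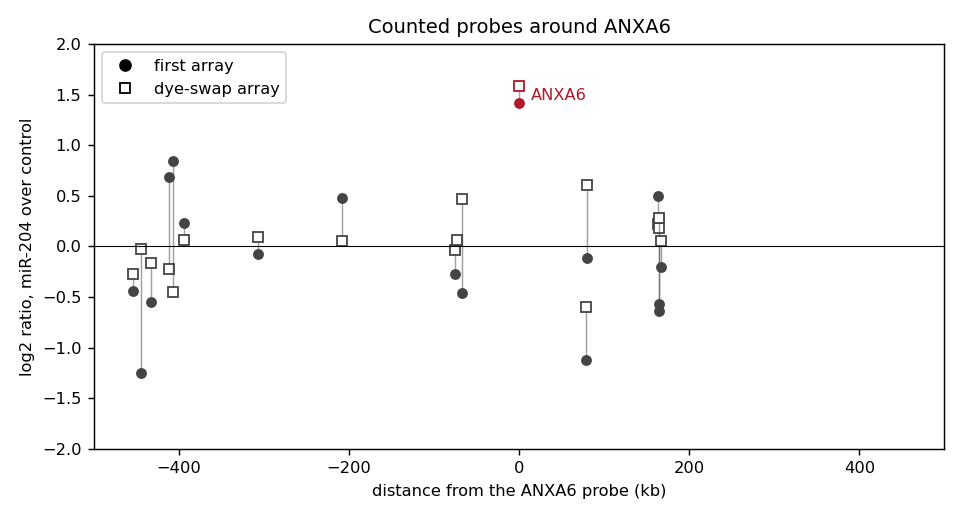
Log2 ratio of miR-204 RNA over control RNA (y axis) of each counted probe against its distance from the ANXA6 probe in kb (x axis), with filled circles for the first array, open squares for the swapped array and a line joining both. ANXA6 at 0 kb, chosen on its high ratio, stands at 1.41 and 1.59, above every other counted probe in the window on both arrays.

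The 3 probes whose pair of ratios was nearest to that of ANXA6, by Euclidean distance over the 2 arrays among the 23159 probes, belonged to transcripts of little annotation. BP871540 had log2 ratios of 1.06 and 1.42 (distance 0.39), THC2680571 had 1.88 and 1.73 (distance 0.49), and FLJ36032 had 1.37 and 0.99 (distance 0.59). None is an annexin, and the distances rest on 2 values per probe.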

How the data were processed

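RNA of HEK-293 cells with miR-204 mimic and with scrambled oligonucleotide was compared on 2 two-colour arrays with the dyes exchanged. The authors extracted the spots with Feature Extraction 9.5.3.1. The deposited processed signals are intensity values corrected for background and dye by that software, and the deposited mean and local background signals are uncorrected intensity values. The log ratio column deposited by the authors is log10 of Cy5 over Cy3. The series table deposited by the authors holds log2 ratios of miR-204 over control, quantile normalized, with column medians of 0.0065 and -0.018 and, by its correlation with the log ratio column, its direction known. Spot positions and flags (well above background, saturated, outlier) are used as deposited, and probe coordinates are those of the files on hg18. The p-value the software gives for single arrays was not used.

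Neither control spots nor the 128 probes with an outlier flag (208 spots) were used, which left 40872 of 41000 probes. Log2 processed signals of the spots were quantile normalized across the 4 channels with limma 3.58.1 in R 4.3.3, spots were averaged per probe and counted probes per gene name (Python 3.11.15), and the 2 array ratios were averaged. No test compared the conditions, because the arrays are 1 replicate. The fold against a floor for AHNAK is the bright group's mean over the floor of the dim group. Both come from normexp, loess and Aquantile channel values, and the fold is open to dye bias. Its floor is the higher of the lowest signal well above background and the probe's own signal. For AHNAK this was the probe's own signal, so the fold is not a strict lower bound. Quantile normalization and the 2-fold rule were tested on simulated channels without dye effects, with planted changes larger than the threshold. The other steps were not simulated. Precision is limited by the small number of arrays.

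The annexins, the gene lists and the rules were chosen with earlier results of these data known. Genes named are all members, called members of each list or its lowest and highest, genes with a counted probe within 500 kb of ANXA6, and the 3 probes nearest in pattern. Alternatives changed the background correction, normalization, values used, dim-probe filter, flags, arrays, gene summary, threshold and test. The members' symbols all matched RefSeq (GRCh38.p14). Annexin protein features were planned and not run, since no protein sequences were used here.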

Additional observations from a re-analysis of the deposited data

How the results depend on the processing

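The direction of the ANXA6 ratio held under all alternatives run, and its mean log2 ratio ranged from 1.34 to 1.5 with both arrays. The lowest values came from normexp background correction with loess (1.34) and from uncorrected mean signals with loess (1.36). With single arrays ANXA6 ranged from 1.41 to 1.59, the median of the other annexins from -0.11 to 0.07 and their difference from 1.34 to 1.69. ANXA1 stayed between -0.65 and -0.62 and ANXA7 between 0.26 and 0.41 with both arrays. ANXA2 moved to -0.11 without a filter on signal and to -0.18 with its brightest probe alone, and ANXA11 moved to -0.17 and -0.19 under the 2 loess settings and to -0.05 with its brightest probe alone. At 1.5-fold, 1 member probe and 1 member gene (ANXA1) were called lower. With the methods' t-test over the 4 channels together with 2-fold, 0 member probes were called higher, before or after Benjamini-Hochberg adjustment (adjusted p = 0.821 for ANXA6). With limma on the ratios, 0 were called after adjustment (adjusted p = 0.489 for ANXA6) and 1, ANXA6, before it. Both tests treat technical arrays as samples and so say nothing of the conditions. The median of the S100 proteins moved to -0.024 with normexp and loess and to -0.051 for processed signals without further normalization. With single arrays the list medians ranged from -0.014 to 0.0024 for the S100 proteins, from -0.16 to 0.0024 for annexin partners, from -0.026 to 0.0051 for membrane repair, from -0.13 to 0.05 for the other membrane binders and from -0.22 to 0.031 for the ANXA6 neighbourhood. No paired analysis was possible because there was a single pair of RNAs. Where a cause could have moved these values, the cause was not tested. Signal over background limits ANXA9, ANXA13 and the dim probes of AHNAK and SYT13.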

Other observations

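Of 7 further annexin names looked for (ANXA8, its copies ANXA8L1 and ANXA8L2, ANXA10 and the pseudogenes ANXA2P1, ANXA2P2 and ANXA2P3), 4 were on the array and 2 were counted. ANXA2P1 had ratios on the log2 scale of -0.86 on the first and 0.10 on the swapped array, with all 4 channels well above background. One of the ANXA8 probes, A_32_P105549, had ratios of 0.41 and -2.20, and its signal in miR-204 RNA did not rise well above background on the swapped array. The other ANXA8 probe and those of ANXA10 and ANXA2P3 were not well above background in any channel.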
